A study of Mus musculus with 31 samples.

Results

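Glucose uptake and glycolysis genes were followed across sorted cells of the neonatal mouse pancreas. The set was defined by gene symbol and has 39 members among the 38283 genes listed in both expression tables. It covers facilitative glucose transporters, the enzymes from hexokinase to lactate dehydrogenase, the regulators of entry into the citric acid cycle, lactate transporters and the bypass enzymes of gluconeogenesis. All 39 members were found in both tables, and membership did not use any measured value.

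Glycolysis splits glucose into pyruvate and yields ATP without oxygen. Most of its steps are catalysed by several isoenzymes, encoded by separate genes, that differ in affinity, regulation and tissue of expression. In the pancreas the pathway is best known in beta cells, where uptake through a low-affinity transporter and the first steps of glycolysis couple blood glucose to insulin release. Growing and mesenchymal cells generally rely on the high-affinity transporter GLUT1 and on hexokinase 2.

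RNA was profiled at postnatal day 2 in C57BL/6 mice, in YFP+ mesenchymal cells and YFP- non-mesenchymal cells separated by fluorescence-activated sorting. In the H19DMD model, a deletion of the imprinting control region of the Igf2 and H19 locus (H19DMDfl/+ with Nkx3.2+/Cre), described by the submitters as overexpression of Igf2, was compared with H19DMD+/+ mice that also carried Nkx3.2+/Cre. In the Igf2 model, Igf2+/fl mice with Nkx3.2Cre/+ were compared with Igf2+/+ mice with Nkx3.2Cre/+. Every group therefore carried the Nkx3.2-Cre allele, which is active in pancreatic mesenchyme and which marks and recombines the mesenchymal cells only as far as its own expression reaches. Values were available for 21 of 31 samples. The H19DMD model contributed 3 controls and 4 mutants of each fraction, and the Igf2 model 4 controls and 3 mutants, all from the YFP- fraction. The other 10 samples were not analysed here. Whether replicates came from separate animals is not given in the sources used here, so the p-values measure the spread between these samples, which may be partly technical.

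The libraries carried the markers of their labels. Across 8 mesenchymal marker genes the summed FPKM (fragments per kilobase of transcript, scaled to the number of mapped fragments) was 4523 to 5926 in the 7 mesenchymal libraries and 149 to 253 in the 7 non-mesenchymal libraries of the H19DMD model, and 4 epithelial markers summed to 3.81 to 14.8 and 346 to 855. Igf2 itself stood at 3648 to 4024 FPKM in mesenchymal controls and 6162 to 7923 in mesenchymal H19DMD mutants, and H19 at 2437 to 2454 and 565 to 835. In non-mesenchymal cells of this model Igf2 stood at 45.2 to 53.2 FPKM in controls and 45.4 to 157 in mutants. Loss of Igf2 in the targeted mesenchyme of the Igf2 model was not analysed here. In the non-mesenchymal cells of the Igf2 model, Igf2 stood at 71.5 to 144 FPKM in controls and 25.0 to 147 in mutants. Between 17476 and 19352 genes were above 0 per library in the H19DMD model and between 19199 and 20918 in the Igf2 model. The tables hold no read counts, so the number of reads per library is unknown. The spacing of low values gave a rough depth relative to mesenchymal mutant 1 of the H19DMD model, lowest for mesenchymal mutant 4 (0.497), but it moved by over 1.5 times with the bin width in 2 of 13 libraries. The members together summed to 495 to 946 FPKM per library in the H19DMD model and 887 to 1089 in the Igf2 model.

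Between the sorted fractions, the members did not move as a block, and isoenzymes of one step could differ in opposite directions. Mesenchymal cells held less Aldoc and Eno1 and more Eno2 than non-mesenchymal cells in both genotypes, with less of the pyruvate dehydrogenase kinase gene Pdk4. In controls, 34 of the 39 members passed a mean of at least 1 FPKM and were tested. Of these, 6 were higher and 3 lower in mesenchymal cells at an adjusted p under 0.05 (limma, Benjamini-Hochberg over all genes tested), where 12.4% of all 16732 genes tested were called higher and 10.3% lower. In H19DMD mutants, 2 of 35 members tested were higher and 10 lower, where 13.5% of all 16767 genes were called higher and 15.1% lower. Aldoc in controls and Slc2a4, Hk3 and Fbp1 in mutants averaged under 1 FPKM in one fraction. They entered the test only through the fraction where they were high, so these counts support nothing about the members as a set. The median log2 difference of the members, on the log2(FPKM + 1) scale used for every log2 value here, was 0.26 in controls (0.08 over all genes) and -0.44 in mutants (-0.03 over all genes). Scaling the libraries by the median ratio over genes lowered the all-gene median in controls from 0.08 to -0.04 and that of the members from 0.26 to 0.12. It gave 5 members higher and 5 lower, where 11.2% of all genes were higher and 12.4% lower. Without mesenchymal control 3 the split was 3 higher and 5 lower (9.05% and 8.08% of all genes). In controls 4 members were called without non-mesenchymal control 3 and 5 without non-mesenchymal control 2, where 17.8% and 17.0% of all genes were called. The members' median was 0.01 without mesenchymal control 3, 0.12 without mesenchymal control 1, 0.13 without non-mesenchymal control 1 and 0.40 without non-mesenchymal control 2. Each fraction is a mixture of cells, so fewer cells of a type and less RNA per cell cannot be told apart in any of these differences.

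**Figure D1:**
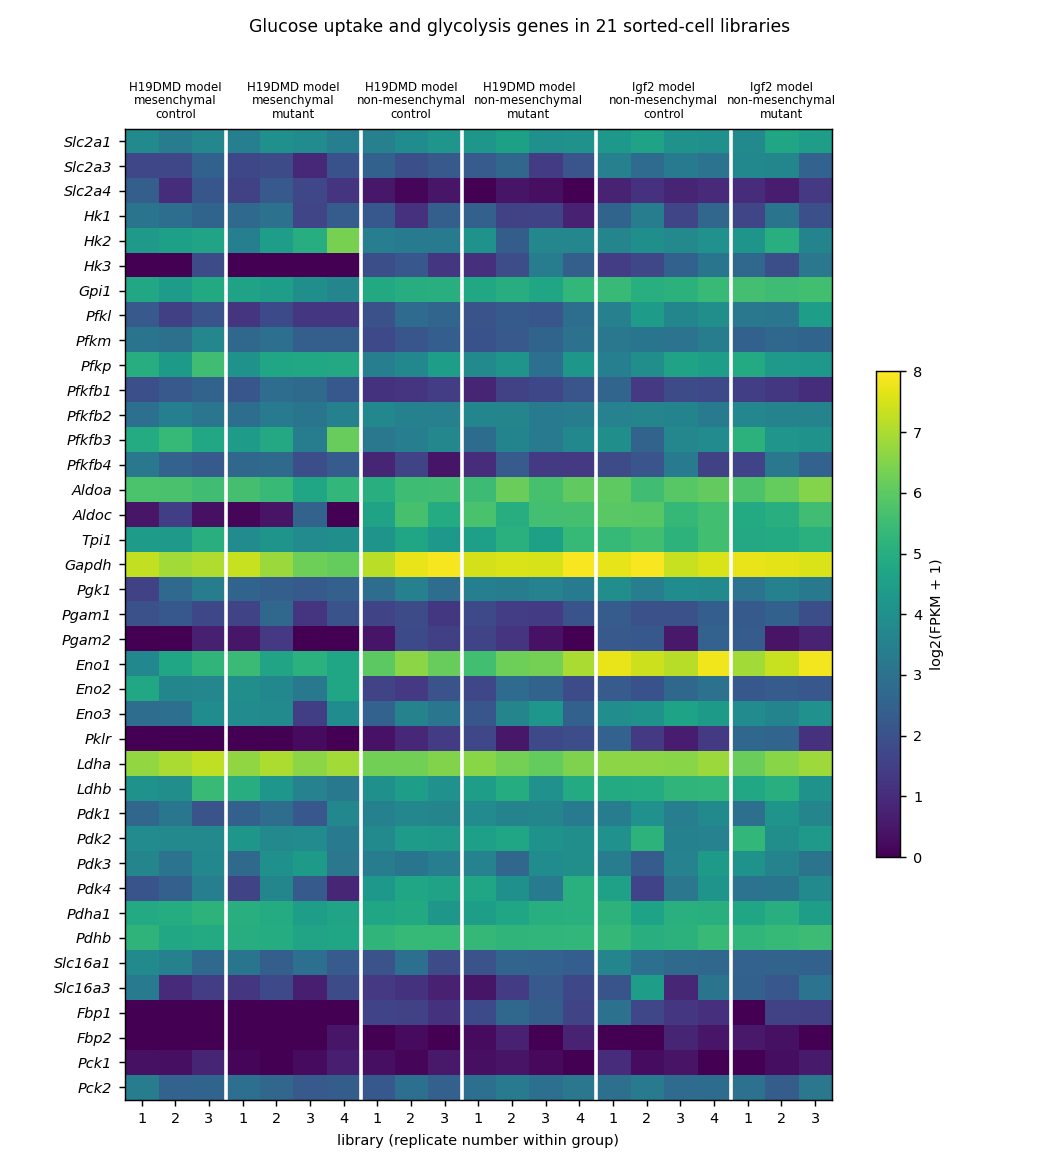
Level of each of the 39 members (rows, by pathway order) in each of the 21 libraries (columns, grouped by model, fraction and genotype), coloured by log2(FPKM + 1) on a linear colour scale from 0 to 8. Gapdh, Ldha and Aldoa are bright in every column, while Aldoc, Hk3, Pklr and Fbp1 are dark in most or all mesenchymal columns.

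The DNA just upstream of 5 genes is shown because these include the 4 members called in both genotypes, together with Hk2. The sequences are from RefSeq promoter windows on GRCm38.p6, limited to the bases before the outermost start in GENCODE M21, and run 5′ to 3′ on the strand of the gene. Capitals mark ACGTG or GCGTG on either strand (CACGT or CACGC when read on the printed strand), the core letters bound by hypoxia-inducible factors, transcription factors that raise glycolytic genes when oxygen is scarce. Aldoc is the aldolase isoenzyme known from brain, and the stretch before it spans chr11:78322823-78322967 (plus strand). Eno1 is the broadly expressed enolase (upstream stretch chr4:150236458-150236707 (plus strand)), and Eno2 the enolase of neurons and endocrine cells (chr6:124769674-124769923 (minus strand)). Pdk4 is a kinase that shuts off pyruvate dehydrogenase (chr6:5496310-5496528 (minus strand)), and Hk2 the inducible hexokinase (chr6:82774455-82774704 (minus strand)).
Aldoc: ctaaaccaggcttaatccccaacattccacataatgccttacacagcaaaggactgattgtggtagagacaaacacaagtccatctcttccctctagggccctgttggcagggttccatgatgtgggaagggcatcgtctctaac
Eno1: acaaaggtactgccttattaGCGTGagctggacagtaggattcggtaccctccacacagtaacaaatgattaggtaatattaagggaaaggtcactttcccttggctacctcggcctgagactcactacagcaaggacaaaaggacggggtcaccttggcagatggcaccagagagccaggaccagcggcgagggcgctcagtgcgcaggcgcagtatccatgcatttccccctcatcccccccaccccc
Eno2: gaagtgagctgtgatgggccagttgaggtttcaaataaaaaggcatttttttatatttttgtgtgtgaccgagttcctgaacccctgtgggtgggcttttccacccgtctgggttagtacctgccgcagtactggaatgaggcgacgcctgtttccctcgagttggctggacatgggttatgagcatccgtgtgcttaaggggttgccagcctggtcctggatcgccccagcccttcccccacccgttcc
Pdk4: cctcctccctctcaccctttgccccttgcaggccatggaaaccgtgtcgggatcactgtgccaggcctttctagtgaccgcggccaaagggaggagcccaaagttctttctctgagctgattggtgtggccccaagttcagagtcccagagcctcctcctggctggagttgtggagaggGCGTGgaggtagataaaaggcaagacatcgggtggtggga
Hk2: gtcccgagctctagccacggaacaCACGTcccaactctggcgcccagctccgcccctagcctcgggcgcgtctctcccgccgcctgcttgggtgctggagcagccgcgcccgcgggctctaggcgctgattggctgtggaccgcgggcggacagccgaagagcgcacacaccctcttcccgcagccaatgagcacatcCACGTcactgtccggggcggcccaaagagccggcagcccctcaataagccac
The Hk2 stretch held 2 ACGTG matches, the Eno1 and Pdk4 stretches held 1 GCGTG match each, and the Aldoc and Eno2 stretches held neither in the printed bases. Each of the 2 RefSeq windows of Aldoc held 1 GCGTG match outside the printed bases. Eno1 also has overlapping windows further downstream (chr4:150236947-150237196 and chr4:150236974-150237223), each with 2 GCGTG matches outside the printed bases. Over whole windows of 300 bases, from 250 before to 50 after a start, either motif, on either strand, occurred in 30 of the 37 members with a RefSeq promoter (81.1%; Slc2a3 and Slc2a4 have none in the table) and in 46.7% of all 27025 genes. ACGTG alone occurred in 51.4% of those members and in 21.8% of all genes, and CACGTG, which contains ACGTG, in 18.9% and 8.09%. A gene with more windows has more chances of a match, and the 37 members had 56 windows, against 32851 for the 27025 genes. Per window, either motif occurred in 71.4% of the members' windows and in 43.8% of all windows. The members' windows were also richer in G and C, with a median of 57.3% against 52.7% over all windows. A match describes letters only and shows no binding.

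Glucose enters through the transporters. Slc2a1 encodes GLUT1, the widespread high-affinity transporter. It was 13.05, 9.46 and 12.04 FPKM in mesenchymal controls, 10.01, 15.2, 13.6 and 9.93 in mesenchymal mutants, 10.2, 13.7 and 17.0 in non-mesenchymal controls and 17.9, 22.6, 15.3 and 16.4 in non-mesenchymal mutants. The fractions overlapped in controls and did not in mutants, and the difference did not pass the test in controls (log2 difference -0.21, SE 0.24, adjusted p = 0.58) or in mutants (-0.54, SE 0.20, adjusted p = 0.076). Slc2a1 in the Igf2 model stood at 18.4, 23.7, 16.02 and 15.04 in controls and 13.3, 25.2 and 21.3 in mutants. Slc2a4, which encodes the insulin-responsive transporter GLUT4 of muscle and fat, was 1.95, 3.73, 2.28 and 1.32 FPKM in mesenchymal mutants and 0, 0.380, 0.268 and 0 in non-mesenchymal mutants. In controls it was 4.40, 1.06 and 3.45 against 0.420, 0.0926 and 0.391. The fractions did not overlap in either genotype, but Slc2a4 reached the mean of 1 FPKM only through the mesenchymal libraries, so its test is no support. In the Igf2 model it was 0.750, 1.18, 0.762 and 0.945 in controls and 1.03, 0.530 and 1.49 in mutants, which overlapped. Slc2a3, the high-affinity transporter GLUT3, ranged from 0.903 to 12.4 FPKM over all 21 libraries and was not called in either fraction comparison.

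The composition of the transporter family differed more than the level of Slc2a1. Isoenzyme composition was taken as the share of each gene in the summed FPKM of its family within a library, with the non-member isoenzymes counted in the sum, so scaling between libraries does not enter. Of 37 shares in the 12 families that could be computed in the H19DMD model, 13 did not overlap between the 7 mesenchymal and the 7 non-mesenchymal libraries, and they lay in 6 families. A two-sided exact permutation test within genotype gave 22 of the 37 an adjusted p under 0.05 (Benjamini-Hochberg over the 37). For the 13 separated shares that p is fixed by the separation and adds nothing to it, and shares within a family add to 100% and are not independent. Counting only members in the family sums left fewer of the 13 separated, as given in the closing section. No counterpart over all genes is given for these counts. Slc2a1 made up 60.0 to 81.0% of transporter FPKM in mesenchymal libraries and 26.5 to 40.7% in non-mesenchymal libraries. Slc2a2, the low-affinity GLUT2 of beta cells and hepatocytes and no member of the set, made up 0 to 7.37% and 49.1 to 68.2%. Slc2a4 made up 7.77 to 20.8% and 0 to 1.09%. The separation of the Slc2a1 shares rests on counting Slc2a2. Among the members alone the Slc2a1 shares of the fractions overlapped. The lowest was then in a mesenchymal library (control 3) and the highest in a non-mesenchymal one (mutant 3). With Slc2a2 counted, Slc2a1 in the Igf2 model, normalised in a separate table, took 37.7 to 44.3% in non-mesenchymal controls and 29.2 to 52.2% in mutants.

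**Figure D2:**
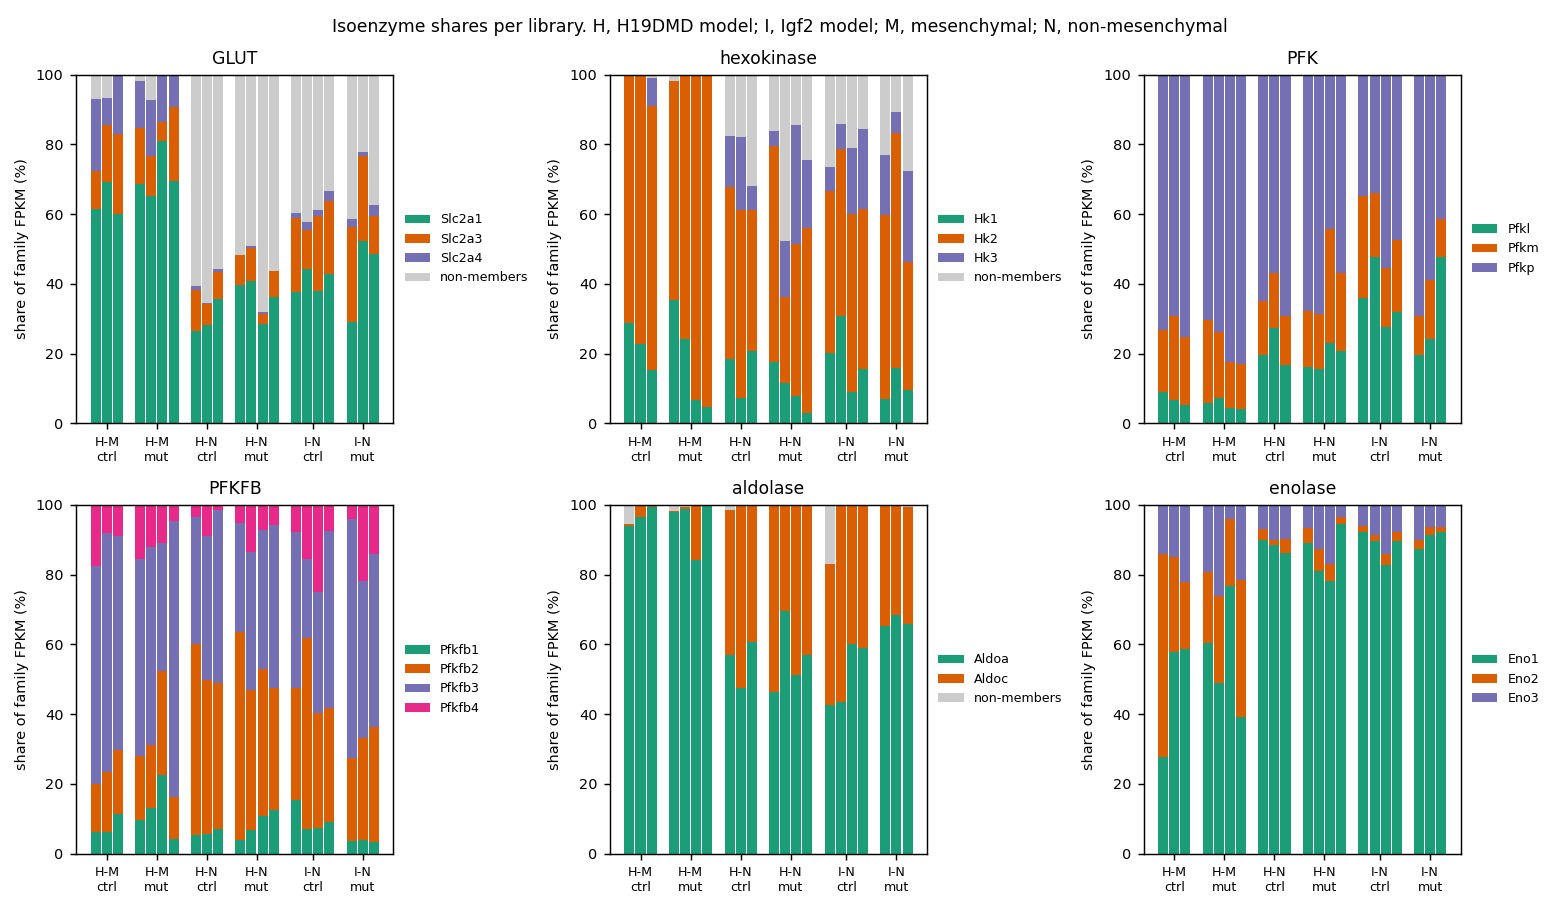
Share of each isoenzyme in the summed FPKM of its family (y axis, percent) in each of the 21 libraries (bars, grouped by model, fraction and genotype) for 6 families, with isoenzymes outside the set pooled in grey. In the H19DMD model Aldoc fills 30.4 to 53.7% of the aldolase bar in non-mesenchymal libraries and 0 to 15.9% in mesenchymal libraries, and Slc2a1 fills at least 60.0% of the transporter bar only in mesenchymal libraries.

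Hexokinases trap glucose as glucose 6-phosphate. Hk2 was 18.5, 21.7 and 24.7 FPKM in mesenchymal controls and 9.69, 9.08 and 8.63 in non-mesenchymal controls, without overlap. The mesenchymal controls were higher by 1.15 on the log2 scale (SE 0.18, adjusted p = 0.0061), a 2.37-fold ratio of means. In mutants the mesenchymal libraries spread from 9.88 through 21.5 and 30.6 to 81.5 FPKM, and the non-mesenchymal libraries stood at 15.8, 4.13, 11.9 and 12.01. Those groups overlapped and the difference was not called (1.37, SE 0.63, adjusted p = 0.15). Hk2 was 11.4, 14.7, 12.5 and 15.4 FPKM in Igf2-model controls and 16.8, 31.7 and 11.2 in Igf2 mutants. With all libraries of the table in one fit, the Hk2 difference in controls was no longer called (adjusted p = 0.19).

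Hk2 supplied 62.7 to 95.2% of hexokinase FPKM in mesenchymal libraries and 24.4 to 61.9% in non-mesenchymal libraries of the H19DMD model, with the nearest libraries almost touching. In Igf2-model non-mesenchymal cells it supplied 45.8 to 51.1% in controls and 36.8 to 67.4% in mutants, which reaches into the mesenchymal range. Hkdc1, a hexokinase-like gene outside the set, supplied 0 to 0.360% and 0.529 to 13.1% in the H19DMD model. Hk1, the general housekeeping hexokinase, ranged from 0.671 to 9.42 FPKM over all libraries and was not called between fractions. Hk3, a hexokinase best known in white blood cells, was listed at 0 in all 4 mesenchymal mutants and stood at 1.10 to 9.32 FPKM in the non-mesenchymal mutants, through which alone it entered the test. In controls it was 0 in 2 mesenchymal libraries and 2.66 in the other, inside the 1.42 to 3.55 FPKM of the non-mesenchymal libraries. The 4 leukocyte markers summed to 0.0635 to 4.68 FPKM in mesenchymal libraries and 182 to 425 in non-mesenchymal libraries of the H19DMD model, and Cd52 and Tyrobp were at 0 in all 4 mesenchymal mutants. Their part in the Hk3 difference was not tested.

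Gpi1, the isomerase that follows hexokinase, was 26.7, 19.8 and 28.1 FPKM in mesenchymal controls, 23.5, 21.5, 14.9 and 11.4 in mesenchymal mutants, 27.9, 30.5 and 31.3 in non-mesenchymal controls and 25.9, 30.6, 25.4 and 38.4 in non-mesenchymal mutants. The fractions were separate in mutants and overlapped in controls, and neither difference passed the test (adjusted p = 0.058 and 0.38). Gpi1 in the Igf2 model was 41.1, 31.1, 34.3 and 41.5 FPKM in controls and 47.9, 44.6 and 46.6 in mutants. Phosphofructokinase then commits the sugar to glycolysis. Pfkp, the platelet-type subunit, had the highest mean of the family in every H19DMD group, at 30.7, 19.6 and 46.0 FPKM in mesenchymal controls, 16.3, 25.2, 27.0 and 27.6 in mesenchymal mutants, 9.82, 12.4 and 20.9 in non-mesenchymal controls and 12.9, 16.5, 6.62 and 17.7 in non-mesenchymal mutants. It was not called (adjusted p = 0.11 in controls and 0.081 in mutants). In the Igf2 model Pfkp was 9.84, 14.4, 23.6 and 21.4 FPKM in controls and 28.7, 19.2 and 18.4 in mutants. Pfkm, the muscle-type subunit, was higher in mesenchymal than in non-mesenchymal controls (7.39, 6.83 and 12.1 against 2.36, 3.44 and 4.22 FPKM, log2 difference 1.15, SE 0.29, adjusted p = 0.038) but in mutants, at 5.50, 6.52, 4.39 and 4.31 against 3.01, 3.74, 4.94 and 6.97, the fractions overlapped and no call was made (0.16, SE 0.25, adjusted p = 0.68). Pfkl, the liver-type subunit, was lower in mesenchymal than in non-mesenchymal mutants (-0.95, SE 0.26, adjusted p = 0.028), at 1.35 to 2.46 against 3.11 to 6.45 FPKM. Leaving out mesenchymal mutant 1, 3 or 4 or non-mesenchymal mutant 2 or 4 ended that call (adjusted p 0.059 to 0.065). As shares in the H19DMD model, Pfkl held 4.15 to 8.97% in mesenchymal and 15.7 to 27.3% in non-mesenchymal libraries, and Pfkp 69.3 to 82.9% and 44.2 to 69.2%, the latter again nearly touching. In the 7 Igf2-model libraries Pfkl held 19.6 to 47.8% and Pfkp 34.1 to 69.2%.

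The bifunctional PFKFB enzymes set the level of fructose 2,6-bisphosphate, the main activator of phosphofructokinase. In controls, 3 of the 4 genes were called higher in mesenchymal cells, where 12.4% of all genes were, and the calls of Pfkfb4 and Pfkfb1 were lost when most single libraries were left out. Pfkfb3, the isoform with the strongest kinase bias, was 29.3, 40.2 and 26.1 FPKM against 8.19, 9.71 and 12.1, a 3.19-fold ratio of means with no overlap (log2 difference 1.57, SE 0.24, adjusted p = 0.0059). Pfkfb4 was 3.81 to 8.28 against 0.369 to 2.11 FPKM (1.69, SE 0.42, adjusted p = 0.035) and Pfkfb1 2.87 to 4.85 against 1.23 to 1.73 (0.96, SE 0.26, adjusted p = 0.045). In mutants none of the 3 passed: Pfkfb3 was 20.02, 27.3, 9.33 and 68.9 against 6.16, 11.3, 8.59 and 12.4 FPKM (1.31, SE 0.53, adjusted p = 0.11 by limma). The mesenchymal mutant with the highest Pfkfb3 was replicate 4, the same library that had the highest Hk2 and the lowest relative depth (0.497), whose part in these values was not tested. Pfkfb3 in the Igf2 model was 14.8, 4.80, 11.9 and 13.4 in controls and 34.1, 16.9 and 16.4 in mutants. Pfkfb2, the isoform known from heart, moved the other way as a share, at 12.02 to 29.7% in mesenchymal and 34.9 to 59.6% in non-mesenchymal libraries of the H19DMD model, while its level was not called. In the Igf2 model's non-mesenchymal cells that share was 32.1 to 54.6% in controls and 23.9 to 33.2% in mutants, which overlaps the mesenchymal range.

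Of the 6 members higher in mesenchymal controls, Eno2 and Pfkfb3 kept an adjusted p under 0.05 in all 14 alternatives and Hk2 in 13 of 14, but Pfkm in 7 of 14, Pfkfb4 in 7 of 13 and Pfkfb1 in 4 of 13. Leaving out any 1 of the 6 control libraries ended the call for Pfkm (adjusted p 0.060 to 0.099) and for Pfkfb1 (0.060 to 0.12), and leaving out any of 5, all but non-mesenchymal control 2, ended it for Pfkfb4 (0.057 to 0.10).

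**Figure D3:**
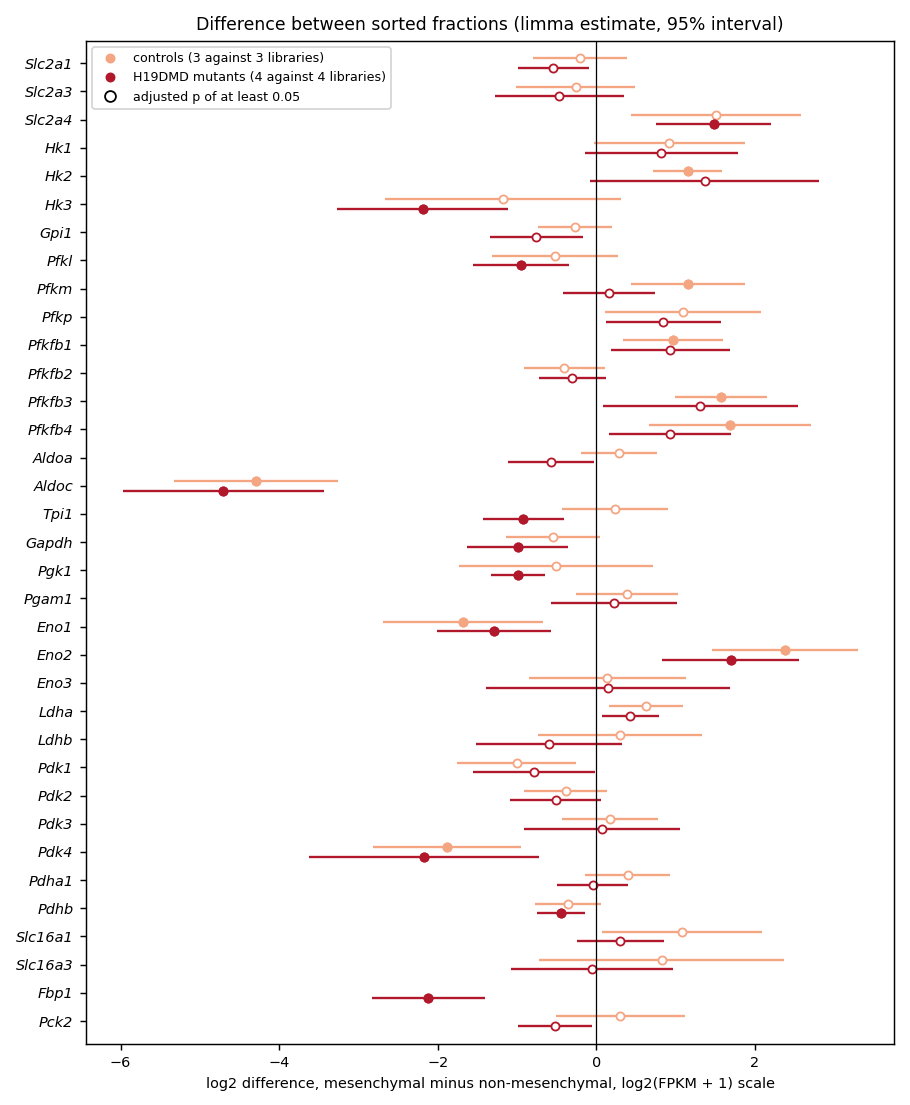
Log2 difference between mesenchymal and non-mesenchymal libraries for each member tested (points, with 95% intervals as lines), in controls (3 against 3 libraries) and in H19DMD mutants (4 against 4 libraries). Filled points have an adjusted p under 0.05. Aldoc lies far to the left at -4.29 and -4.71, Eno2 to the right at 2.38 and 1.69, and Gapdh at -0.55 and -0.99.

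Aldolase, which cleaves the six-carbon sugar, gave the widest separation. Aldoc was 0.392, 1.80 and 0.273 FPKM in mesenchymal controls and 0.0868, 0.354, 4.88 and 0 in mesenchymal mutants. In non-mesenchymal cells it was 23.2, 49.5 and 29.5 in controls and 51.1, 30.9, 47.9 and 48.7 in mutants. The lowest non-mesenchymal library was thus several times the highest mesenchymal one, mutant replicate 3. The log2 difference was -4.29 in controls (SE 0.42, adjusted p = 0.0011) and -4.71 in mutants (SE 0.55, adjusted p = 0.00037). In controls Aldoc reached the mean of 1 FPKM only through the non-mesenchymal libraries, so its test there is no support, as for Slc2a4. With no filter on low values it was called in controls too (adjusted p = 0.0017). The separation in controls rests on the library values, which did not overlap. The ratio of means was 41.5 in controls and 33.6 in mutants but rested on single libraries: it was 103 without mesenchymal control 2 and 304 without mesenchymal mutant 3. Igf2-model non-mesenchymal cells had similarly high values, 60.7, 60.1, 39.1 and 46.3 FPKM in controls and 28.7, 31.3 and 46.1 in mutants, though in a table normalised separately. Aldoc lies on chr11:78322968-78327781.

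Aldoa, the muscle and general aldolase, was abundant everywhere. It was 51.7, 50.8 and 46.1 FPKM in mesenchymal controls, 48.6, 42.0, 25.8 and 38.0 in mesenchymal mutants, 31.9, 45.1 and 45.8 in non-mesenchymal controls and 44.0, 70.8, 50.5 and 64.8 in non-mesenchymal mutants. The fractions were barely apart in controls and overlapped in mutants, and Aldoa was not called in controls (log2 difference 0.29, SE 0.20, adjusted p = 0.37) or in mutants (-0.57, SE 0.24, adjusted p = 0.11). Aldoa was 64.3, 46.1, 59.2 and 66.7 FPKM in Igf2-model controls and 53.8, 68.6 and 90.1 in mutants. Aldoa held 84.1 to 100% of aldolase FPKM in mesenchymal libraries and 46.3 to 69.6% in non-mesenchymal libraries of the H19DMD model, and Aldoc held 0 to 15.9% and 30.4 to 53.7%.

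Triose phosphate isomerase (Tpi1), glyceraldehyde 3-phosphate dehydrogenase (Gapdh) and phosphoglycerate kinase (Pgk1) carry the 3-carbon sugars onward. Gapdh, often used as a reference gene, was 151, 116 and 130.3 FPKM in mesenchymal controls and 143, 213 and 238 in non-mesenchymal controls, which overlapped (log2 difference -0.55, SE 0.24, adjusted p = 0.17). In mutants it was 159, 110.2, 73.9 and 68.2 against 177, 186, 180.2 and 239, without overlap (-0.99, SE 0.28, adjusted p = 0.029). Leaving out any 1 of 6 mutant libraries (mesenchymal 3 or 4, or any non-mesenchymal one) ended that call, at an adjusted p of 0.053 to 0.078. Gapdh was 208, 244, 159.8 and 187 in Igf2-model controls and 213, 202 and 186 in mutants.

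Tpi1 was 20.5, 19.01 and 32.0 FPKM in mesenchymal controls against 16.5, 25.2 and 18.1 in non-mesenchymal controls, which overlapped (0.23, SE 0.27, adjusted p = 0.59). In mutants it was 13.5, 16.7, 13.4 and 14.7 against 21.9, 33.1, 22.3 and 39.8, lower in all 4 mesenchymal libraries (-0.92, SE 0.22, adjusted p = 0.015). Pgk1 was 1.94, 5.60 and 9.57 against 6.20, 10.2 and 6.33 in controls (-0.51, SE 0.50, adjusted p = 0.52) and 5.02, 4.34, 3.83 and 4.48 against 9.93, 9.33, 10.6 and 9.10 in mutants (-0.99, SE 0.15, adjusted p = 0.0015). Both genes were called in mutants in all 16 alternatives. In the annotation, 53.9% of the 50-base stretches of Pgk1 occur in another gene, most of them in Pgk1-rs7, and 25.1% of those of Gapdh, so the authors' counting could have divided their reads. Pgk1-rs7 was listed at 0 in all 21 libraries. Pgam1, the general phosphoglycerate mutase, shares 36.2% of its stretches with other genes and is as uncertain. It was 2.93, 3.60 and 2.36 FPKM in mesenchymal controls, 2.11, 5.43, 1.32 and 3.10 in mesenchymal mutants, 2.12, 2.54 and 1.44 in non-mesenchymal controls, 2.399, 1.71, 1.66 and 3.22 in non-mesenchymal mutants, 3.99, 2.93, 2.997 and 4.30 in Igf2-model controls and 3.76, 4.62 and 2.80 in Igf2 mutants. The groups overlapped and Pgam1 was not called. Pgam2, the muscle form, ranged from 0 to 4.66 FPKM.

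Enolase makes phosphoenolpyruvate, and its isoenzymes differed in opposite directions between the fractions. Eno1 was 12.4, 25.1 and 36.6 FPKM in mesenchymal controls and 62.2, 96.8 and 68.8 in non-mesenchymal controls, and 42.4, 24.5, 33.8 and 25.3 against 46.3, 74.1, 79.4 and 125 in mutants. No mesenchymal library reached a non-mesenchymal one of its genotype, and the log2 difference was -1.68 in controls (SE 0.41, adjusted p = 0.034) and -1.29 in mutants (SE 0.31, adjusted p = 0.016). Eno2 went the opposite way: 26.2, 11.8 and 12.01 against 2.11, 1.51 and 3.14 in controls (2.38, SE 0.38, adjusted p = 0.0069, means 7.39-fold apart) and 14.4, 12.4, 8.45 and 25.5 against 2.29, 5.90, 4.89 and 2.53 in mutants (1.69, SE 0.37, adjusted p = 0.011, 3.89-fold). The 4 neural markers summed to 1.09 to 5.04 FPKM in mesenchymal and 8.77 to 21.2 in non-mesenchymal libraries, with Sox10 at 0 in all 7 mesenchymal libraries; their part in the Eno2 values was not tested.

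In the H19DMD model, Eno2 supplied 19.2 to 58.4% of enolase FPKM in mesenchymal libraries and 1.39 to 6.45% in non-mesenchymal ones, and Eno1 27.6 to 76.7% and 78.1 to 94.6%. Eno3, the muscle enolase, ranged from 1.82 to 23.8 FPKM and was not called. In the Igf2 model Eno1 was 210.1, 165, 139 and 227 FPKM in controls and 117, 160.1 and 231 in mutants, and Eno2 was 3.89, 3.01, 5.35 and 6.84 in controls and 3.57, 4.01 and 3.47 in mutants. All 7 Eno1 values in that table were at or above 117 FPKM while the H19DMD non-mesenchymal values were at or below 125, but the tables were normalised separately, and the model and the table cannot be told apart. Eno1 shares 26.0% of its 50-base stretches with other genes, chiefly Eno1b, which was listed at 0 in every library. Without mesenchymal control 2 or any 1 of the non-mesenchymal controls, Eno1 was no longer called in controls (adjusted p 0.067 to 0.11). In mutants Eno1 was called in 15 of 16 alternatives. The exception was the replicate block, which takes same-numbered libraries as pairs (adjusted p = 0.061, limma).

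**Figure D4:**
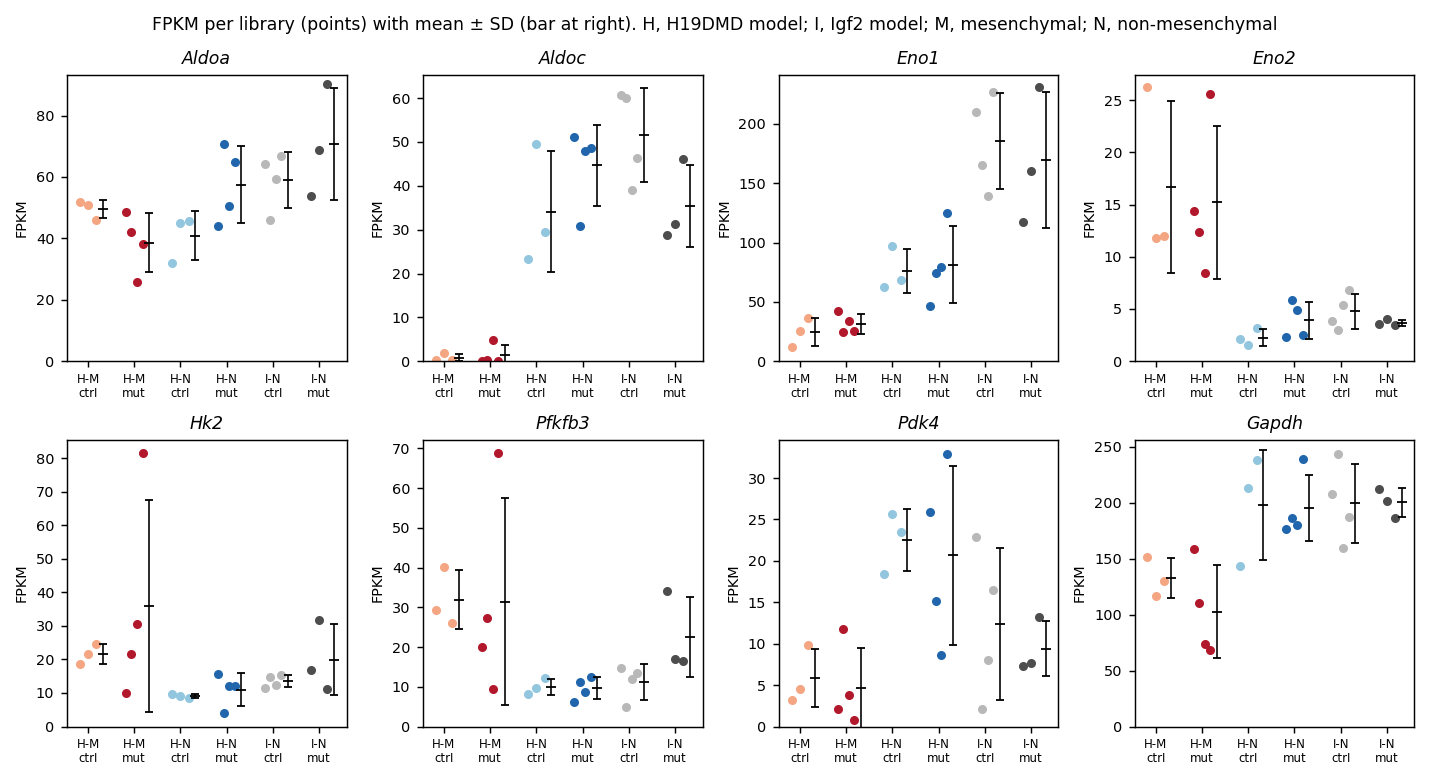
FPKM of 8 members in each library (points) with mean ± SD beside them for the 6 groups, each panel on a linear axis from 0. Aldoc, Eno1 and Pdk4 are lower and Eno2 is higher in the mesenchymal groups, while 1 mesenchymal H19DMD mutant stands apart in Hk2 (81.5) and Pfkfb3 (68.9).

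Pyruvate kinase and lactate dehydrogenase end the pathway. Pklr, the liver and red-cell pyruvate kinase, was listed at 0 in 6 of 7 mesenchymal libraries and at 0.174 in the other. It was 0.321, 0.862 and 1.61 FPKM in non-mesenchymal controls, 2.24, 0.417, 2.41 and 2.75 in non-mesenchymal mutants, 4.67, 1.57, 0.563 and 1.59 in Igf2-model controls and 5.57, 5.09 and 1.18 in Igf2 mutants. In the H19DMD model the fractions did not overlap, and Pklr was below the mean of 1 FPKM needed for testing in both fraction comparisons. The 5 erythroid markers summed to 11.7 to 23.2 FPKM in mesenchymal and 113 to 1497 in non-mesenchymal libraries; their part in the Pklr levels was not tested. Ldha, the subunit that favours lactate formation, was 104, 127 and 150.1 FPKM in mesenchymal controls against 77.9, 77.1 and 88.5, and 100.3, 128, 97.6 and 117 in mesenchymal mutants against 94.5, 79.8, 67.5 and 86.8. The groups did not overlap in either genotype, but the difference missed the threshold in both (0.63, SE 0.19, adjusted p = 0.065 and 0.43, SE 0.16, adjusted p = 0.078). Ldha in the Igf2 model was 95.8, 96.1, 94.1 and 109.6 in controls and 71.4, 94.2 and 112 in mutants. Ldhb, the subunit of oxidative tissues, ranged from 8.36 to 41.5 FPKM and was not called. Ldha made up at least 72.1% of lactate dehydrogenase FPKM in all 21 libraries.

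The pyruvate dehydrogenase complex sends pyruvate into the citric acid cycle, and the PDK kinases switch it off. Pdk4 was 3.21, 4.54 and 9.81 FPKM in mesenchymal controls against 18.4, 25.7 and 23.4, and 2.09, 11.7, 3.79 and 0.814 in mesenchymal mutants against 25.9, 15.1, 8.68 and 33.0. The groups were separate in controls and overlapped in mutants, and Pdk4 was lower in mesenchymal cells in both (-1.88, SE 0.38, adjusted p = 0.017 and -2.18, SE 0.63, adjusted p = 0.034). Leaving out mesenchymal control 2 or non-mesenchymal control 2 or 3 ended the call in controls (adjusted p 0.058 to 0.065). In mutants, leaving out mesenchymal library 1, 3 or 4 or non-mesenchymal library 1, 2 or 4 ended it (0.064 to 0.090). The replicate block also ended the call in mutants. Pdk4 was 22.9, 2.08, 8.02 and 16.5 in Igf2-model controls and 7.31, 7.65 and 13.3 in mutants. Pdk1, Pdk2 and Pdk3, the other kinases, were not called in either genotype.

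Pdk2 had the highest mean of the kinases in mesenchymal controls, at 13.5, 12.7 and 12.5 FPKM, and was 17.7, 12.7, 13.5 and 9.11 in mesenchymal mutants, 13.04, 20.3 and 19.04 in non-mesenchymal controls and 21.9, 25.1, 16.1 and 14.4 in non-mesenchymal mutants. It was 15.7, 34.8, 10.3 and 10.6 in Igf2-model controls and 38.3, 14.6 and 18.6 in mutants. Pdha1 and Pdhb encode the catalytic subunits of the complex. Pdha1 ranged from 17.7 to 34.8 FPKM over all libraries and was not called. Pdhb was lower in mesenchymal than in non-mesenchymal mutants, at 30.6, 30.2, 24.4 and 25.3 against 38.8, 36.6, 37.5 and 38.3 FPKM (-0.44, SE 0.13, adjusted p = 0.036), a call that ended when any 1 of 6 libraries was left out, all but mesenchymal mutants 1 and 2 (adjusted p 0.071 to 0.081). It was 35.6, 26.9 and 28.8 against 36.6, 40.0 and 40.4 in controls, also apart but not called, and 38.8, 31.3, 34.4 and 42.0 in Igf2-model controls and 37.4, 40.4 and 43.7 in mutants.

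Lactate leaves cells through monocarboxylate transporters. Slc16a1, which encodes MCT1, was 13.3, 10.5 and 5.66 FPKM in mesenchymal controls, 7.61, 4.41, 6.58 and 3.93 in mesenchymal mutants, 3.17, 6.60 and 2.65 in non-mesenchymal controls and 3.17, 5.08, 4.70 and 4.20 in non-mesenchymal mutants, and was not called between fractions (adjusted p = 0.12 and 0.40). It was 11.4, 6.58, 5.77 and 5.48 in Igf2-model controls and 4.66, 4.85 and 4.56 in mutants, with every mutant below every control but no call. Slc16a3, which encodes the lactate exporter MCT4, ranged from 0.372 to 21.2 FPKM and was not called. Of the gluconeogenic enzymes, Fbp1, the liver-type fructose bisphosphatase, was listed at 0 in all 7 mesenchymal libraries. It was 2.03, 1.92 and 1.27 FPKM in non-mesenchymal controls, where the mean over both fractions was too low for testing, and 2.44, 5.48, 4.10 and 2.12 in non-mesenchymal mutants, through which alone it entered the test. It was 6.96, 2.24, 1.39 and 1.13 in Igf2-model controls and 0, 1.94 and 1.87 in mutants. Fbp2, the muscle form, and Pck1, the cytosolic phosphoenolpyruvate carboxykinase, stayed at or below 0.760 and 1.01 FPKM. Pck2, the mitochondrial carboxykinase, was 9.54, 4.75 and 4.92 in mesenchymal controls, 6.52, 5.27, 3.68 and 4.12 in mesenchymal mutants, 3.60, 6.55 and 4.52 in non-mesenchymal controls and 6.51, 8.53, 6.55 and 8.0 in non-mesenchymal mutants, 6.78, 8.53, 5.93 and 6.04 in Igf2-model controls and 7.17, 4.16 and 7.94 in Igf2 mutants. It supplied at least 86.6% of the summed carboxykinase FPKM in the H19DMD model.

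Across both genotypes, 4 members were called in the same direction: Aldoc, Eno1 and Pdk4 lower and Eno2 higher in mesenchymal cells. The test of Aldoc in controls is no support, since Aldoc entered it only through the non-mesenchymal libraries. With the replicate block, Eno1 and Pdk4 were no longer called in mutants, while Aldoc and Eno2 stayed called in both genotypes. Over all 15715 genes tested in both comparisons, 18.4% were called in both in the same direction. Of the 34 members tested in both, 6 had estimates of opposite sign, as did 22.2% of all genes. The controls added Hk2, Pfkm, Pfkfb1, Pfkfb3 and Pfkfb4 (all higher), and the mutants added Slc2a4 (higher) and Hk3, Pfkl, Tpi1, Gapdh, Pgk1, Pdhb and Fbp1 (lower). A call in 1 genotype only is not a difference between genotypes; the difference itself is tested by the interaction over the 14 libraries of the model.

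Other genes of glucose handling were read from a list of 42, of which 41 are listed in the tables. In controls 3 of 37 tested were higher and 8 lower in mesenchymal cells, and in mutants 3 and 15 of 37. The shares over all genes tested were the 12.4% higher and 10.3% lower in controls and the 13.5% and 15.1% in mutants given above. These counts include genes that averaged under 1 FPKM in mesenchymal cells and were tested only through the non-mesenchymal libraries, Slc2a2 and Mlxipl in controls among them. Slc2a2 averaged 0.791 ± 0.737 FPKM in mesenchymal and 27.2 ± 4.13 in non-mesenchymal controls (SD, n = 3 each). Mlxipl, which encodes the glucose-sensing transcription factor ChREBP, averaged 0.821 ± 0.727 and 38.3 ± 7.21. Epas1, which encodes HIF-2 alpha, was higher in mesenchymal controls, at 13.3 ± 3.97 against 3.49 ± 0.52 (1.64, SE 0.26, adjusted p = 0.0070), as was its partner Arnt (45.4 ± 9.84 against 20.4 ± 1.07, 1.10, SE 0.20, adjusted p = 0.012). Bpgm, the red-cell bisphosphoglycerate mutase, was lower in mesenchymal mutants, at 5.25 ± 1.95 against 27.9 ± 13.2 (SD, n = 4 each, -2.18, SE 0.36, adjusted p = 0.0026). Epas1, Arnt and Bpgm were picked from the list and are each given in 1 genotype. They describe neither the list nor the response to low oxygen as a whole. The 7 endocrine markers summed to 30.5 to 215 FPKM in mesenchymal and 10437 to 29069 in non-mesenchymal libraries, and the 8 acinar markers to 46.5 to 135 and 3590 to 8098. The 5 erythroid markers summed to 11.7 to 23.2 FPKM in mesenchymal and 140.5 to 1497 in non-mesenchymal mutants, the libraries behind the Bpgm values. The 4 endothelial markers summed to 33.7 to 45.8 FPKM in mesenchymal and 14.8 to 26.5 in non-mesenchymal controls, the libraries behind the Epas1 and Arnt values. The part of these markers in these values, and in those of Aldoc, Eno1 and Pdk4, was not tested.

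The second question was whether the H19DMD deletion changed these genes within a fraction. In mesenchymal cells none of 33 members tested passed the adjusted threshold (limma), where 0.0694% of all 15856 genes did. At an unadjusted p under 0.05 there were 2 members, both lower, against 4.76% of all genes. Estimates were below 0 for 23 of 33 members and for 9089 of 15856 genes, with medians of -0.23 and -0.07. The members' median was -0.13 without mesenchymal mutant 3 and -0.14 without mesenchymal control 1. Ductal markers summed to 11.3 to 31.9 FPKM in these mutants and 31.1 to 74.8 in these controls, endocrine markers to 30.5 to 119 and 52.9 to 215, and leukocyte markers to 0.0635 to 2.52 and 2.47 to 4.68. The ranges overlapped, and their part in the members' values was not tested. Tpi1 was 13.5, 16.7, 13.4 and 14.7 FPKM in mutants against 20.5, 19.01 and 32.0 in controls, every mutant below every control (-0.64, SE 0.22, unadjusted p = 0.022, adjusted p = 0.93 by limma). Pfkm was 5.50, 6.52, 4.39 and 4.31 against 7.39, 6.83 and 12.1, also without overlap (-0.64, SE 0.26, unadjusted p = 0.042, adjusted p = 0.93 by limma). Slc16a1 came next and overlapped (-0.67, SE 0.34, unadjusted p = 0.085 by limma). The 95% interval of Hk2 ran from -1.14 to 1.80. These mutant libraries also enter the comparison of fractions, so the low Tpi1 values there are the same measurements.

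In non-mesenchymal cells of the H19DMD model 0 of 36 members passed the adjusted threshold by limma, where 0.0677% of all 16239 genes did, and 1, Pck2, had an unadjusted p under 0.05, against 5.35% of all genes. Pck2 was 6.51 to 8.53 FPKM in mutants against 3.60 to 6.55 in controls, which overlapped (0.53, SE 0.22, unadjusted p = 0.048, adjusted p = 0.89 by limma). Aldoa (0.47, SE 0.23, unadjusted p = 0.073) and Fbp1 (0.67, SE 0.32, unadjusted p = 0.076) followed in limma's order. Estimates were above 0 for 25 of 36 members and for 9106 of 16239 genes, with medians of 0.12 and 0.05. The members' median was 0.24 without mutant 1, 0.21 without mutant 2 and 0.25 without control 2, and 0.07 with median-ratio scaling. Endocrine markers summed to 19134 to 29069 FPKM in these controls and 10437 to 19885 in these mutants, and erythroid markers to 113 to 368 and 140.5 to 1497; their part in these values was not tested.

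**Figure D5:**
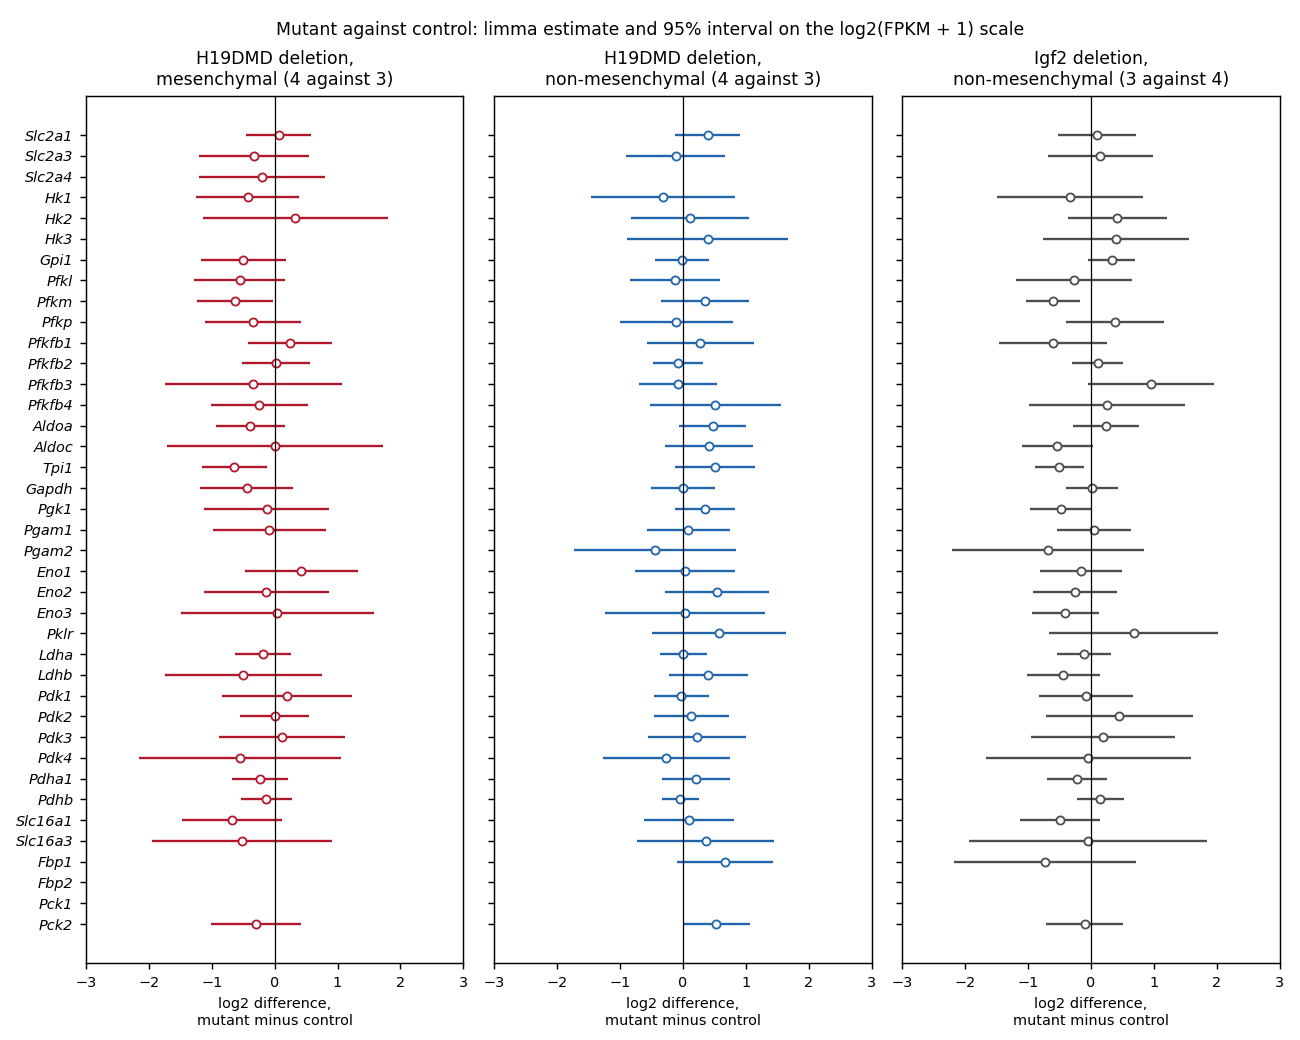
Log2 difference between mutant and control for each member tested (points, with 95% intervals as lines) in H19DMD mesenchymal cells, H19DMD non-mesenchymal cells and Igf2-model non-mesenchymal cells. No point passes an adjusted p of 0.05, most points of the first panel lie left of 0, and most of the second panel lie right of 0.

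The difference between those genotype effects was tested as an interaction over the 14 H19DMD libraries. None of 35 members passed the adjusted threshold (limma), where 0.0117% of all 17105 genes did, and 4 had an unadjusted p under 0.05 against 6.35% of all genes. These were Tpi1 (-1.15, SE 0.35, unadjusted p = 0.0063), Aldoa (-0.86, SE 0.33, unadjusted p = 0.021), Pfkm (-0.99, SE 0.38, unadjusted p = 0.024) and Pck2 (-0.83, SE 0.37, unadjusted p = 0.043), each with an adjusted p of 0.75 or 0.77 by limma. A negative value means that the deletion's difference, mutant minus control, was lower in mesenchymal than in non-mesenchymal cells. Estimates were below 0 for 30 of 35 members and for 10070 of 17105 genes, with medians of -0.33 and -0.11. With median-ratio scaling the medians were -0.20 for the members and -0.0048 for all genes, and without non-mesenchymal control 1 the members' median was also -0.20.

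Deleting Igf2 in the mesenchyme was read in the non-mesenchymal cells. Here too 0 of 36 members passed the adjusted threshold by limma, where 0.0631% of all 17441 genes did, and 2 had an unadjusted p under 0.05, both lower, against 5.28% of all genes. Pfkm was 4.64, 5.52 and 4.91 FPKM in mutants against 8.29, 7.70, 7.22 and 9.45 in controls, with every mutant below every control (-0.60, SE 0.18, unadjusted p = 0.013, adjusted p = 0.92 by limma). Tpi1 was 27.1, 28.4 and 32.6 against 40.3, 47.2, 35.1 and 46.6, again without overlap (-0.51, SE 0.17, unadjusted p = 0.018, adjusted p = 0.92 by limma). Pgk1 was 7.32, 10.5 and 8.51 against 14.4, 9.79, 13.8 and 12.8 and overlapped (-0.48, SE 0.21, unadjusted p = 0.053 by limma). Pfkfb3 had the highest positive estimate, 0.96 (SE 0.43, unadjusted p = 0.059 by limma), with its 3 mutants at 16.4 or more and its 4 controls at 14.8 or less. The members' median was -0.07 against -0.03 over all genes, and it lay between -0.15 and -0.01 when mutant 1 or 3 or control 2, 3 or 4 was left out. Acinar markers summed to 5141 to 7557 FPKM in mutants and 2447 to 3552 in controls, without overlap. Ductal markers summed to 773 to 930.2 in mutants and 935 to 1276 in controls, and epithelial markers to 528 to 676 and 715 to 902. Leukocyte markers were 464.0 to 932 in mutants and 331 to 463.6 in controls, almost touching. The part of these 4 marker lists in the members' values was not tested.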

How the data were processed

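RNA of sorted pancreatic cells was amplified with the Ovation system and sequenced as single 50-bp reads, per the labels' protocols. The authors deposited FPKM values per gene, 1 table per model, as the file headers name them; TopHat2 2.0.8, Cufflinks 2.2.1 and GRCm38 are named in the submitters' processing notes, and the use of strand is not given in the sources used here. FPKM hold no read counts, so the number of reads is unknown and no count model was fitted; relative depth was estimated roughly from the commonest ratio of values under 1 FPKM. The 8 sample columns of the Igf2-model mesenchymal cells held no values and were not used. Genes averaging 1 FPKM or more over the libraries compared were tested with limma 3.58.1 (R 4.3.3) on log2(FPKM + 1), within a table, with a variance trend and Benjamini-Hochberg adjustment over all genes tested at 0.05; the code was tested on simulated data. A log2 difference on this scale understates the change of low genes. Isoenzyme shares were compared by exact permutation. Every member is named; values per library are given for the 4 members called in both fraction comparisons with an absolute log2 difference of at least 1 in both, the leading member of each family, Slc2a1, Gapdh, Ldha and the 3 lowest p per mutant comparison. The library values of Slc2a4 were added after they were seen. Members and lists were chosen with earlier results of these data known. Sequences come from RefSeq (GRCm38.p6), positions and 50-base overlaps from GENCODE M21. Alternatives changed the pseudocount, filter, scaling, variance trend, block, libraries in the fit and single libraries.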

Additional observations from a re-analysis of the deposited data

Results flagged for a closer look

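In groups of 4 libraries, 104 member-by-group sets with a mean of at least 1 FPKM were screened for a library whose gap to its nearest neighbour, on the log2(FPKM + 1) scale, as a part of the group's range, exceeded Dixon's 95% critical value. This picked out 6 values, where chance picks out about 1 in 20 groups. Eno3 was 1.82 FPKM in mesenchymal H19DMD mutant 3, against 13.1 to 13.9 in the other 3, and Pfkl was 2.46 in mesenchymal mutant 2, against 1.35 to 1.40. Non-mesenchymal H19DMD mutant 2 was low for Aldoc (30.9, against 47.9 to 51.1) and for Pklr (0.417, against 2.24 to 2.75). Among Igf2-model controls, Ldha was 109.6 in replicate 4, against 94.1 to 96.1, and Pgam2 was 0.471 in replicate 3, against 3.62 to 4.66. No member's H19DMD effect differed between fractions by the interaction at an adjusted p under 0.05 (limma), and 4 of 35 did at an unadjusted p under 0.05, against 6.35% of all genes.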

How the results depend on the processing

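No estimate of the called members or of the 3 with the lowest p per mutant or interaction comparison, and no median of the members, changed sign under the alternatives run. The split of calls in controls turned from 6 higher and 3 lower to 3 and 5 without mesenchymal control 3. Median-ratio scaling gave 5 and 5, and turned the sign of the all-gene median in controls (to -0.04) and in 2 mutant comparisons, where it was near 0. Of the values of single members under an alternative, 446 kept their side of the threshold and 59 lost significance. The 446 include the mutant and interaction comparisons, where no member was called and no call could be lost. All 59 losses fell on members called between fractions. Members called between fractions in controls numbered 4 to 8 when single libraries were left out (9 with all; 5 without non-mesenchymal control 2 and 4 without non-mesenchymal control 3), and 9 to 14 in mutants (12 with all). With a replicate block, the mutants' count was 7 (2 higher, 5 lower) and that of controls 7, where 24.7% and 15.9% of all genes were called; the paired fit changed no count of 0 in the mutant comparisons. In mutants the block ended the calls of Eno1, Pfkl, Gapdh, Pdhb and Pdk4 (adjusted p 0.061 to 0.089, limma), and in controls those of Pfkfb4 and Pfkfb1 (0.068 and 0.082). Between fractions of a genotype, all 7 same-numbered pairs correlated positively but weakly (0.0076 to 0.068, against -0.052 to 0.032 for others), and not every library correlated best with its own number. All 7 were under 0.1, and the unpaired fit was kept as the main result. That does not exclude pairing, since 7 of 7 same-numbered pairs were positive, against 6 of 18 others. The calls that the block ended therefore depend on treating the libraries as unpaired. Counting members only in the family sums left 8 of the 13 separated shares; leaving out single libraries gave 13 to 16. The median difference in controls was 0.01 without mesenchymal control 3, against 0.26 with all. Dropping genes whose transcripts are all shorter than 200 nt, chosen after seeing the data, gave 11 and 14 members called, where 27.7% and 33.7% of all genes were. No mutant or interaction comparison called a member in any alternative. Calls over all genes there, 11 per mutant comparison, were 13 to 27 (H19DMD mesenchymal), 14 to 34 (H19DMD non-mesenchymal) and 14 to 37 (Igf2) when single libraries were left out, and 1, 0 and 0 without the short transcripts. Mesenchymal cells of the Igf2 model were not run. Unknown read numbers limit statements on members near 0, and 3 or 4 libraries a group leave wide intervals.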
